A study of Mus musculus with 2 samples.

Results

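The genes described here encode the glycosyltransferases that build and cap sugar chains in the Golgi apparatus, chosen by symbol from a table of gene expression in mouse small intestine. Symbols beginning with Galnt and a number, Galntl, B3gnt, B3galt, B4galt, B4galnt, Gcnt, Fut and a number, St3gal, St6gal, St8sia or C1galt were taken, which gave 79 of the 27275 genes. The sialyltransferases of the St6galnac subfamily fall under the St6gal prefix. The symbol St6galnac2 occurs on 2 rows with different gene identifiers. Another pair of rows, Galnt6os and St8sia3os, are antisense RNAs and not enzymes, which leaves 77 members that encode proteins.

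RNA was measured in small intestine of naive mice of 2 genotypes, with 1 library of each. The KO library carries the genotype label Spibfl/flVillin-Cre, in which Cre recombinase driven by the villin promoter removes the floxed gene of the ETS family transcription factor Spib from gut epithelium. The WT library is labelled Spib+Villin-Cre, so the Cre transgene is named for both groups. The sources used here state neither the age and sex of the mice nor whether a library pools several animals. Whole tissue was used, so that immune and stromal cells, which villin-Cre does not target, contribute to every value, and fewer cells of a type cannot be told apart from less RNA per cell.

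Sugar chains are made stepwise, each enzyme adding 1 sugar from an activated nucleotide donor in a set linkage. In the gut they coat mucins, the brush border and glycolipids, where they hold water, resist proteases and serve as binding sites and food for microbes. Polypeptide GalNAc-transferases start mucin-type O-glycans on serine and threonine, core and branching enzymes set the shape of the chain, N-acetylglucosaminyl- and galactosyltransferases lengthen it, and fucose or sialic acid caps its end.

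Most of these enzymes had nearly the same level in both libraries, and on the log2 scale defined below each direction held a single member past 2-fold. The type 1 chain galactosyltransferase gene B3galt5 had 0.294 FPKM in the KO library and 6.37 FPKM in the WT library. The alpha-2,3 sialyltransferase gene St3gal6 had 12.5 FPKM in the KO library and 4.27 FPKM in the WT library. FPKM, fragments scaled to gene length and sequencing depth, is a level per length, so that genes can be set beside each other. In the KO library, the WT library or both, 52 members reached an FPKM of 1 and were compared, and 27 stayed below. Differences are given as plain FPKM ratios, with exact Clopper-Pearson intervals at 95% for counting error, and as the log2 ratio of KO over WT after adding 1 to each FPKM.

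Of the 52 compared members, 1 was at least 2-fold higher in the KO library on the log2 scale, or 1.92%, beside 1.61% of all 13479 compared genes. The lower side also held 1 member, or 1.92%, beside 2.51% of all compared genes. Log2 ratios of at least 0.5 were found for 4 members, or 7.69%, beside 4.45% of all compared genes. Those of at most -0.5 were found for 5 members, or 9.62%, beside 7.34% of all. These shares lie near the background, so the counts are no result about the enzymes as a set. The median log2 ratio of the compared members was 0.03, beside -0.05 for all compared genes. Log2 ratios above 0 belonged to 27 members, or 51.9%, beside 41.3% of all compared genes, and ratios below 0 to 25 members, beside 58.7%. Since each genotype has 1 library, the values have no replicate check, no test was made, and every difference is one between these libraries.

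**Figure D1:**
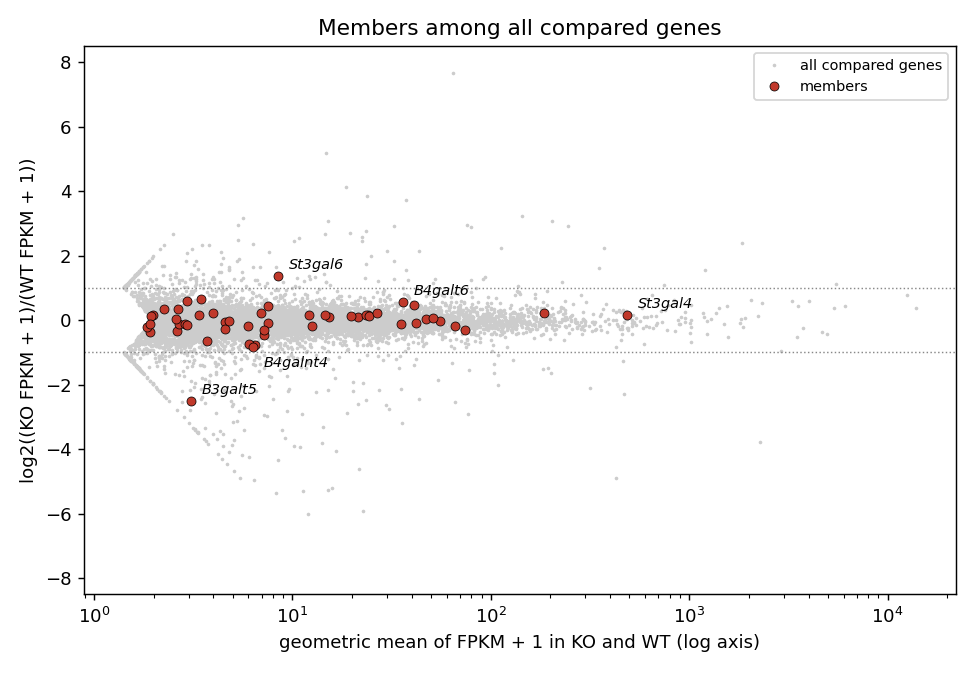
Each point is a compared gene, with the geometric mean of its FPKM + 1 over KO and WT on the horizontal log axis and its log2 ratio of KO over WT on the vertical axis. Red points are the 52 compared members and dotted lines mark 2-fold. B3galt5 at -2.51 and St3gal6 at 1.36 are the members outside the dotted lines.

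The depth behind these values was recovered from the FPKM steps and came to 17658566 reads for the KO library and 17425640 reads for the WT library. The deleted gene went with the labels, since Spib had 0.592 FPKM in the KO library and 4.94 FPKM in the WT library. Epithelial markers had like sums, with Vil1, Epcam, Cdh1 and 5 others summing to 11382 FPKM in the KO library and 12210.1 FPKM in the WT library. None was past 2-fold, but Fabp1 had 764 FPKM in KO and 486 FPKM in WT. Fabp2 went the other way, with 4103 FPKM in KO and 5325 FPKM in WT. The series text speaks of proximal tissue, but the ileal bile acid carriers Fabp6 and Slc10a2 were well expressed in both libraries, Fabp6 at 1735 FPKM in KO and 2030.2 FPKM in WT and Slc10a2 at 92.1 FPKM in KO and 92.6 FPKM in WT. Lct, the lactase gene of proximal villi, had 199 FPKM in KO and 189.5 FPKM in WT. Markers of several other cell types differed between the libraries. The 10 tuft cell markers summed to 88.7 FPKM in KO and 20.2 FPKM in WT, with 8 of 9 compared at least 2-fold higher. The 9 goblet cell markers summed to 7773 FPKM in KO and 5895 FPKM in WT, with 2 of 9, Clca1 and Spink4, past 2-fold higher. Without them the other 7 goblet markers summed to 4619 FPKM in KO and 4688 FPKM in WT. The 6 Paneth cell markers summed to 29612 FPKM in KO and 19017 FPKM in WT, with 2 of 6, Ang4 and Pnliprp2, past 2-fold higher. Without those, the other 4 Paneth markers summed to 24721 FPKM in KO and 18120 FPKM in WT. Most of that was Defa24, at 16277 FPKM in KO and 9553 FPKM in WT. Lyz1 went the other way, with 4250 FPKM in KO and 5754 FPKM in WT. B cell markers summed to 9.63 FPKM in KO and 26.0 FPKM in WT. All 7 had log2 ratios below 0, from -1.20 to -0.42, and 2 were past 2-fold on that scale. Plasma cell markers summed to 524 FPKM in KO and 2002 FPKM in WT. Their log2 ratios ran from -2.28 to 0.03, the latter for Sdc1, with 4 of 7 at least 2-fold lower. T cell markers summed to 32.5 FPKM in KO and 82.9 FPKM in WT. All 8 had log2 ratios below 0, from -1.75 to -0.51, and 4 were past 2-fold. For markers of few FPKM, adding 1 makes the log2 ratio smaller in size than the plain ratio. Macrophage and dendritic cell markers summed to 87.4 FPKM in KO and 127 FPKM in WT, with none of 6 past 2-fold on the log2 scale. Stromal and muscle markers lay close together, at 506 FPKM in KO and 499 FPKM in WT. The part of these cell types in the enzyme values and in the Spib value was not tested.

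The order of the enzyme levels was much the same in both libraries. St3gal4, an alpha-2,3 sialyltransferase that caps type 2 chains, was the most abundant member by far, at 516 FPKM in KO and 459.9 FPKM in WT, which is 35.4% of the summed FPKM of all members in KO and 33.7% in WT. B4galnt2, which makes the Sda antigen of mouse intestinal epithelium, came next with 200.3 FPKM in KO and 171 FPKM in WT. B3gnt3, Galnt6, B4galnt1 and B4galt5 followed in this order in both libraries, between 51.6 and 65.8 FPKM in KO and between 49.3 and 82.0 FPKM in WT. All members together summed to 1457 FPKM in KO and 1365 FPKM in WT, and without St3gal4 to 941 FPKM in KO and 905 FPKM in WT.

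**Figure D2:**
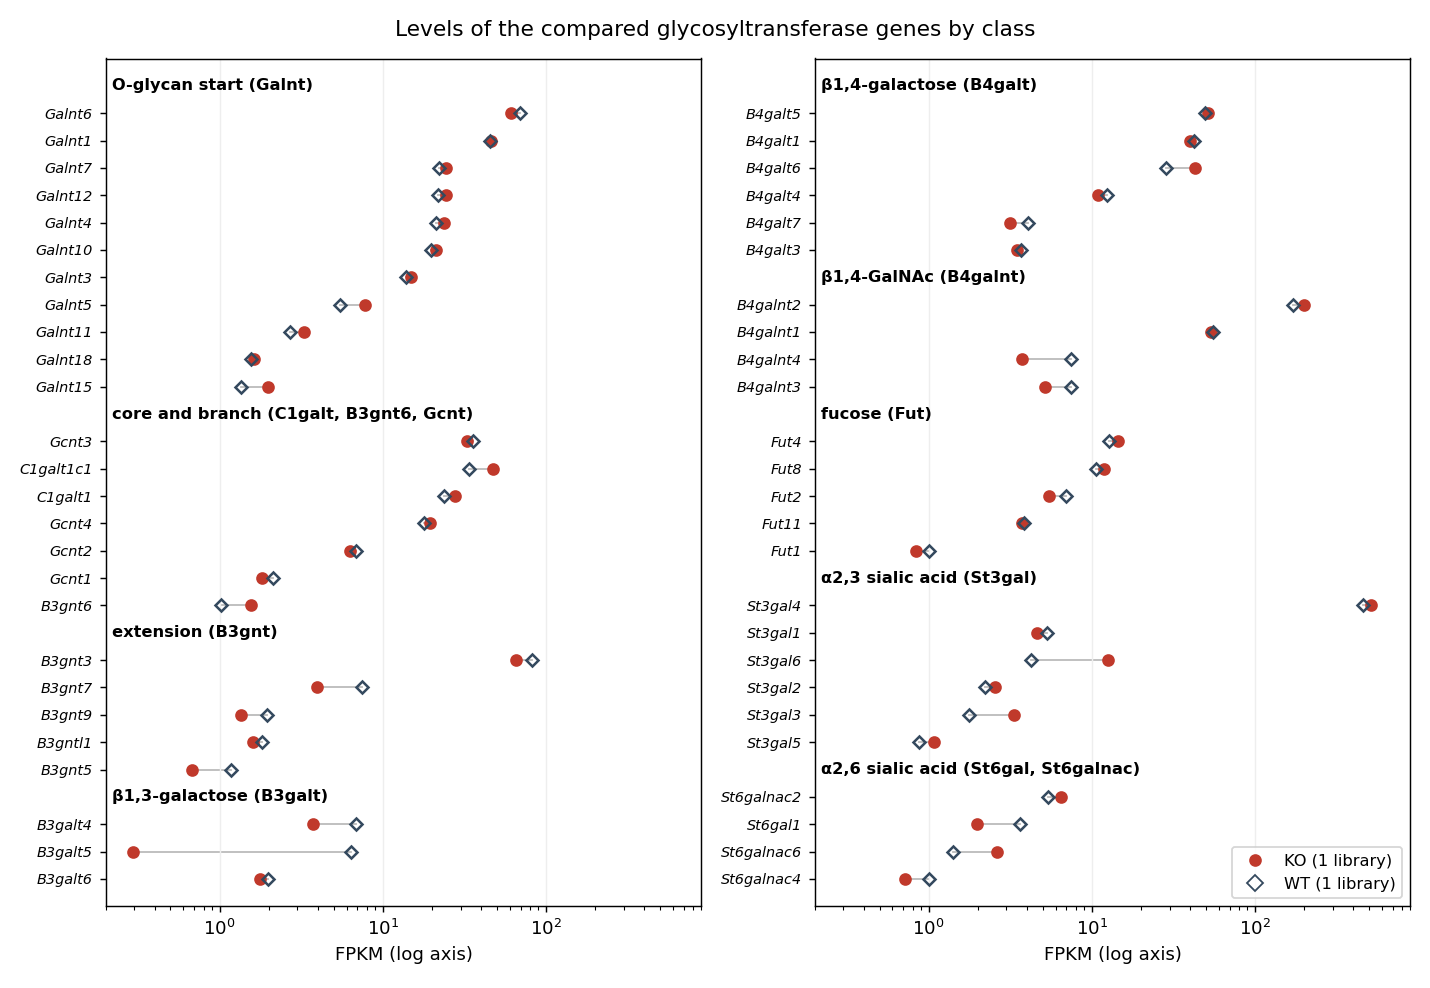
FPKM of the 51 compared members that encode proteins, on a log axis, in 9 enzyme classes. Filled red circles are the KO library and open diamonds the WT library, and a grey line joins the values of a gene. Most pairs lie close together, B3galt5 and St3gal6 have the longest lines, and in the extension and beta-1,3-galactose classes every WT diamond lies to the right.

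The polypeptide GalNAc-transferases, which attach the first sugar of mucin-type O-glycans, were measured by 17 genes, of which 11 were compared. None reached a log2 ratio of 0.5 in either direction, and their summed FPKM was 232 in KO and 225 in WT. Galnt6, the most abundant of them, had 61.1 FPKM from 4177 reads in KO and 69.3 FPKM from 4673 reads in WT, 1.13-fold lower (1.09 to 1.18, the counting interval). Galnt1, a broadly expressed member, had 46.4 FPKM in KO and 45.5 FPKM in WT, and the sign of its log2 ratio of 0.03 turned to -0.001 with another scaling. Galnt7, which prefers substrates that already carry a GalNAc, had 24.4 FPKM in KO and 22.1 FPKM in WT. Galnt12, Galnt4, Galnt10 and Galnt3 lay between 14.9 and 24.5 FPKM in KO and between 13.9 and 21.9 FPKM in WT. The class median of the log2 ratio was 0.14, and 10 of the 11 values, that of Galnt1 among them, were above 0, beside the 41.3% of all compared genes. The counting intervals of the ratios of Galnt1, Galnt3 and Galnt18 span 1. Galnt5 had the highest ratio of the class, with 7.81 FPKM from 615 reads in KO and 5.45 FPKM from 424 reads in WT, 1.43-fold higher (1.26 to 1.62). Goblet cells secrete mucins, which are main acceptors of these enzymes, and the part of the goblet marker values given above in the class was not tested.

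Of the 6 genes of this class that were not compared, Galnt2 was listed at 0 in KO and at 0.0134 FPKM, 1 read, in WT. GENCODE places 3854 of its 4282 exon bases, or 90.0%, also in Gm20388, a gene of the same strand with no row among the 27275 genes. Reads over such bases belong to no single gene where an annotation holds both. The sources used here do not say whether the authors' annotation held Gm20388 or whether their counting left such reads out. The low value of Galnt2 is therefore uncertain and cannot be read as lack of expression. The other 5, Galnt9, Galnt13, Galnt14, Galnt16 and Galntl6, lay at or below 0.239 FPKM in KO and 0.228 FPKM in WT.

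Core and branching enzymes differed little, and both parts of core 1 synthesis were somewhat higher in the KO library. C1galt1 adds galactose to GalNAc and makes the core 1 disaccharide, and C1galt1c1, known as Cosmc, is the chaperone it needs to fold. C1galt1 had 27.7 FPKM from 2979 reads in KO and 23.8 FPKM from 2526 reads in WT, 1.16-fold higher (1.10 to 1.23). C1galt1c1 had 47.4 FPKM from 1213 reads in KO and 33.7 FPKM from 851 reads in WT, 1.41-fold higher (1.29 to 1.54), with a log2 ratio of 0.48. The core 3 synthase B3gnt6, the alternative start that is prominent in colon, was low in both libraries, at 1.55 FPKM from 65 reads in KO and 1.02 FPKM from 42 reads in WT. Its ratio of 1.53 has a wide counting interval of 1.02 to 2.31.

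Branches on these cores are set by the Gcnt genes. Gcnt3, the mucin-type enzyme for core 2 and core 4 branches, had 32.9 FPKM in KO and 35.9 FPKM in WT. Gcnt4 and Gcnt1, which also make core 2, had 19.6 and 1.82 FPKM in KO and 17.8 and 2.11 FPKM in WT. The core 2 enzymes together summed to 54.3 FPKM in KO and 55.8 FPKM in WT. Gcnt2, which branches polylactosamine chains to the I antigen, had 6.33 FPKM in KO and 6.84 FPKM in WT. Gcnt7 was below 1 FPKM in both. No member of the core and branch class had a log2 ratio past 0.5 in size.

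The extension class, named for adding N-acetylglucosamine to lengthen chains, holds the B3gnt genes other than the core 3 synthase B3gnt6. B3gnt9 and B3gntl1 were placed in it by family name alone. B3gnt6, counted with the core enzymes, went the other way, at 1.53-fold higher in the KO library. All 5 members compared in the extension class were lower in KO, beside the 58.7% of all compared genes with a log2 ratio below 0. The summed FPKM of the class was 73.9 in KO and 94.9 in WT, a ratio of 0.779, and the class median of the log2 ratio was -0.33. Most of the sum was B3gnt3, which extends core 1, with 65.8 FPKM from 3550 reads in KO and 82.0 FPKM from 4363 reads in WT, 1.25-fold lower (1.19 to 1.30). B3gnt7, which extends keratan sulphate chains, had 3.93 FPKM from 287 reads in KO and 7.48 FPKM from 539 reads in WT, a ratio of 0.525 (0.454 to 0.607) and a log2 ratio of -0.78. Without B3gnt3 the other 6 genes of the class summed to 8.08 FPKM in KO and 12.9 FPKM in WT.

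B3gnt5, which starts lacto-series glycolipids and is also active in B lymphocytes, had 0.676 FPKM from 62 reads in KO and 1.18 FPKM from 107 reads in WT. B3gnt9 had 1.35 FPKM in KO and 1.96 FPKM in WT, and B3gntl1 had 1.59 FPKM in KO and 1.81 FPKM in WT, where the counting interval of the ratio, 0.664 to 1.16, spans 1. B3gnt2, a main enzyme of polylactosamine extension, was listed at 0.203 FPKM in KO and 0.154 FPKM in WT. Of its 4180 exon bases, 2449, or 58.6%, are shared with Gm28048 on the same strand, which also has no row among the genes. The value of B3gnt2 is therefore as uncertain as that of Galnt2. B3gnt8 had 0.332 FPKM in KO and 0.337 FPKM in WT.

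Among beta-1,3-galactosyltransferases, the summed FPKM was 5.97 in KO and 15.5 in WT, 2.59-fold lower, and B3galt5 made up most of that difference. B3galt5 adds galactose in beta-1,3 linkage to N-acetylglucosamine and so makes the type 1 chains typical of digestive epithelium. It lies on the plus strand of chromosome 16 (96235801 to 96319859, mm10). From 32 reads in KO and 684 reads in WT, it was 21.7-fold lower (15.2 to 31.9), which is -2.51 on the log2 scale. Of the 13479 compared genes, 69 had a lower log2 ratio. Adding 5 in place of 1 before the logarithm gave a log2 ratio of -1.10, and adding 0.1 gave -4.04. B3galt1 and B3galt2, which also make type 1 chains, were near the limit of detection, with 10 and 16 reads in KO and 19 and 12 reads in WT. The genes for type 1 chains held 0.887% of the summed FPKM of type 1 and type 2 galactosyltransferases in KO and 10.1% in WT.

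Other genes also stood far lower in the KO library beside B3galt5. Genes known to be induced by interleukin-22 in epithelium, listed with interleukin-22 and its receptors, summed to 751 FPKM in KO and 10897 FPKM in WT, and 5 of the 7 compared were at least 2-fold lower. Most of both sums was Reg3b, an antibacterial lectin, with 618 FPKM in KO and 8421 FPKM in WT, 13.6-fold lower. The B, T and plasma cell markers given above were lower too as sums. The 5 ileal markers summed to 2844 FPKM in KO and 3099 FPKM in WT. The 7 proximal markers summed to 312 FPKM in KO and 305 FPKM in WT, mostly from Lct. Of 5 proximal markers compared, 1 was at least 2-fold lower, Slc40a1, with 3.41 FPKM in KO and 8.75 FPKM in WT. The part of these cells, signals and gut regions in the B3galt5 value was not tested.

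B3galt4, the GM1 ganglioside synthase, was the next member of the class, with 3.72 FPKM from 103 reads in KO and 6.84 FPKM from 187 reads in WT, 1.84-fold lower (1.44 to 2.36) with a log2 ratio of -0.73. Its reads follow from the smallest whole pair with the observed ratio and may be more. B3galt6, which builds the linker of proteoglycans, had 1.76 FPKM in KO and 1.98 FPKM in WT, and the counting interval of its ratio, 0.670 to 1.18, spans 1. Without B3galt5 the class summed to 5.67 FPKM in KO and 9.09 FPKM in WT, 1.60-fold lower.

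**Figure D3:**
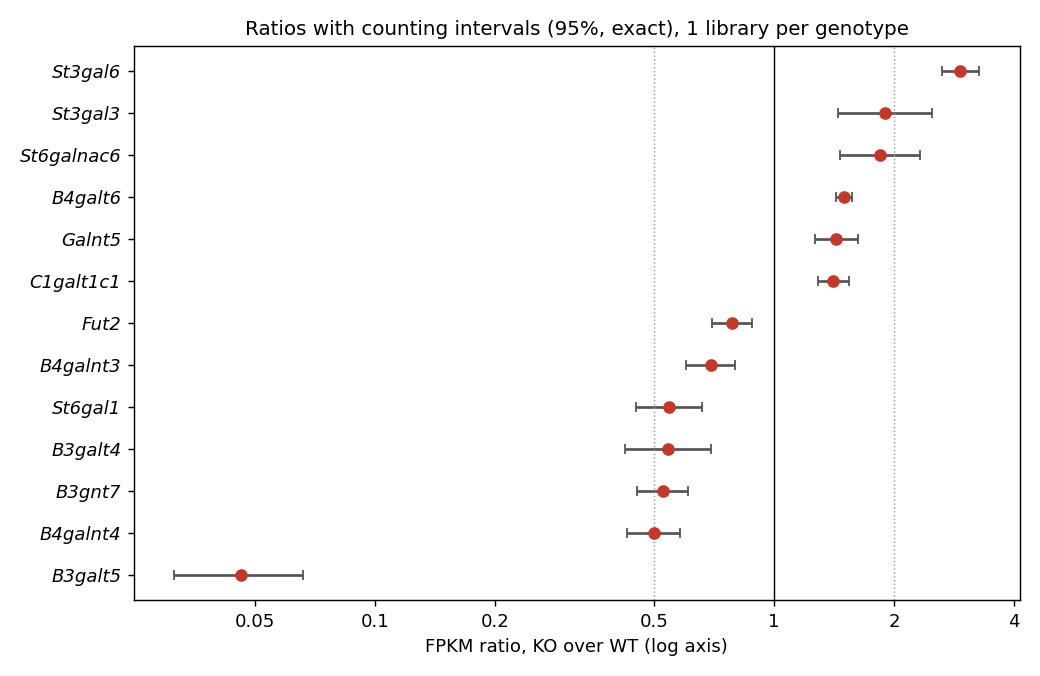
Plain FPKM ratios of KO over WT on a log axis for the 9 members with a log2 ratio past 0.5 in size and for Galnt5, C1galt1c1, Fut2 and B4galnt3. Bars are exact 95% counting intervals, which leave out variation between mice, the solid line marks equality and dotted lines 2-fold. B3galt5 at 0.0462 stands apart from all others, St3gal6 at 2.93 is the highest, and the intervals of B4galnt4, B3gnt7, B3galt4 and St6gal1 lie between 0.423 and 0.695.

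Since a transcription factor was deleted, the RefSeq windows around the starts of the members past 2-fold were searched for letters that ETS factors bind. RefSeq (GRCm38.p6, the same assembly as mm10) gives 3 windows for B3galt5 and 2 for St3gal6, each of 250 bases before and 50 after a start, and the FPKM values cannot tell which start was used. In each gene the window with the most matches to the ETS core GGAA is printed 5′ to 3′, with GGAA on either strand in capitals, for B3galt5 at chr16:96235551-96235850 on the plus strand and for St3gal6 at chr16:58524204-58524503 on the minus strand.
B3galt5: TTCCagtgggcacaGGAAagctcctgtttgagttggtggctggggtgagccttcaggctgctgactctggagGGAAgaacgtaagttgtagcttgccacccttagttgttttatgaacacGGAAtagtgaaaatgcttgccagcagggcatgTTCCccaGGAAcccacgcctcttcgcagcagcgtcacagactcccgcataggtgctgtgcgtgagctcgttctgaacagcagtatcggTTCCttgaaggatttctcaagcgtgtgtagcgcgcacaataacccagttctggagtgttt
St3gal6: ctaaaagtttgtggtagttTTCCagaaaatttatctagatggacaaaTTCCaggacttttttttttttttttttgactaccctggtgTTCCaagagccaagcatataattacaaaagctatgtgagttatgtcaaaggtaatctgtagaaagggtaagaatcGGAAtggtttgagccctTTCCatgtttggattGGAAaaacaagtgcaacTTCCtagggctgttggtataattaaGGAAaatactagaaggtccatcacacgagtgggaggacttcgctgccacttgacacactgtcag
The B3galt5 window held 7 matches and that of St3gal6 held 8. At least 7 were found in 8.02% of the 32851 mouse windows of this length, and at least 8 in 3.72%. These are shares of single windows, whereas each printed window was picked as the highest of its gene, so they understate how often such a pick reaches these counts. The other B3galt5 windows held 4 and 1 matches, and the other St3gal6 window held 5. At least 1 GGAA was found in 96.0% of all windows, so its presence sets no window apart. The longer PU-box GAGGAAGT, the preferred form of Spib and its relative PU.1, was not in any of these 5 windows on either strand, and 3.20% of all windows held it. The STAT motif TTCNNNGAA was found once, in the printed B3galt5 window, where it overlaps the last match printed in capitals, and 8.30% of all windows held it. Among the 75 windows found for 55 of the 76 member enzyme symbols, the PU-box occurred in 4, or 5.33%, and the STAT motif in 5, or 6.67%.

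The beta-1,4-galactosyltransferases, which make the more common type 2 chain and the first steps of glycolipids, summed to 152 FPKM in KO and 141 FPKM in WT. B4galt1 to B4galt4, the type 2 chain enzymes, summed to 54.8 FPKM in KO and 59.1 FPKM in WT. B4galt1, the main one, had 39.9 FPKM in KO and 42.2 FPKM in WT, B4galt4 had 10.9 FPKM in KO and 12.3 FPKM in WT, and B4galt3 had 3.47 FPKM in KO and 3.68 FPKM in WT. B4galt2 stayed below 1 FPKM in both libraries. B4galt5, a lactosylceramide synthase and the most abundant gene of the class, had 51.6 FPKM from 3927 reads in KO and 49.3 FPKM from 3702 reads in WT, 1.05-fold higher (1.001 to 1.10). Its partner in lactosylceramide synthesis, B4galt6, had 42.9 FPKM from 4403 reads in KO and 28.7 FPKM from 2907 reads in WT, 1.49-fold higher (1.43 to 1.57) with a log2 ratio of 0.56. It was the only gene of the class past 0.5 in size. The proteoglycan linker enzyme B4galt7 had 3.15 FPKM in KO and 4.06 FPKM in WT.

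Enzymes that add GalNAc in beta-1,4 linkage were split between abundant and scarce members. B4galnt2 had 200.3 FPKM from 6090 reads in KO and 171 FPKM from 5135 reads in WT, 1.17-fold higher (1.13 to 1.21). B4galnt1, which makes the gangliosides GM2 and GD2, had 53.7 FPKM in KO and 55.2 FPKM in WT, a log2 ratio of -0.04 whose sign turned to 0.01 when centred on the median of all genes. The LacdiNAc synthases were lower. B4galnt4 had 3.73 FPKM from 254 reads in KO and 7.48 FPKM from 502 reads in WT, 2.003-fold lower (1.72 to 2.34), with a log2 ratio of -0.84 that stays within 2-fold on that scale. B4galnt3 had 5.14 FPKM from 343 reads in KO and 7.41 FPKM from 488 reads in WT, 1.44-fold lower (1.25 to 1.66).

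Fucosyltransferases lay close together, with summed FPKM of 37.2 in KO and 35.7 in WT and no log2 ratio past 0.5 in size. Fut4, which adds alpha-1,3 fucose to make Lewis x structures, was the most abundant, with 14.5 FPKM from 1042 reads in KO and 12.8 FPKM from 910 reads in WT, 1.13-fold higher (1.03 to 1.24). Fut8, the enzyme of core fucose on N-glycans, had 11.9 FPKM in KO and 10.6 FPKM in WT. Fut2, which caps epithelial chains with alpha-1,2 fucose and is known to be induced through interleukin-22, had 5.46 FPKM from 524 reads in KO and 6.96 FPKM from 659 reads in WT, 1.27-fold lower (1.13 to 1.43). The interleukin-22 induced list was 14.5-fold lower as a sum in the same library. Interleukin-22 itself, Il22, had 0 reads in KO and 8 reads in WT, and Il22ra1, its epithelial receptor chain, had 41.6 FPKM in KO and 37.9 FPKM in WT. The part of this list in the Fut2 value was not tested. Fut1, the other alpha-1,2 enzyme, had 0.833 FPKM in KO and 1.01 FPKM in WT. Fut11 had 3.76 FPKM in KO and 3.86 FPKM in WT, a log2 ratio of -0.03 whose sign depends on the scaling. Fut10 had 0.769 FPKM in KO and 0.527 FPKM in WT. Fut7, the enzyme of leukocyte selectin ligands, had 1 read in KO and 0 in WT, and Fut9 was at 0 in both.

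**Figure D4:**
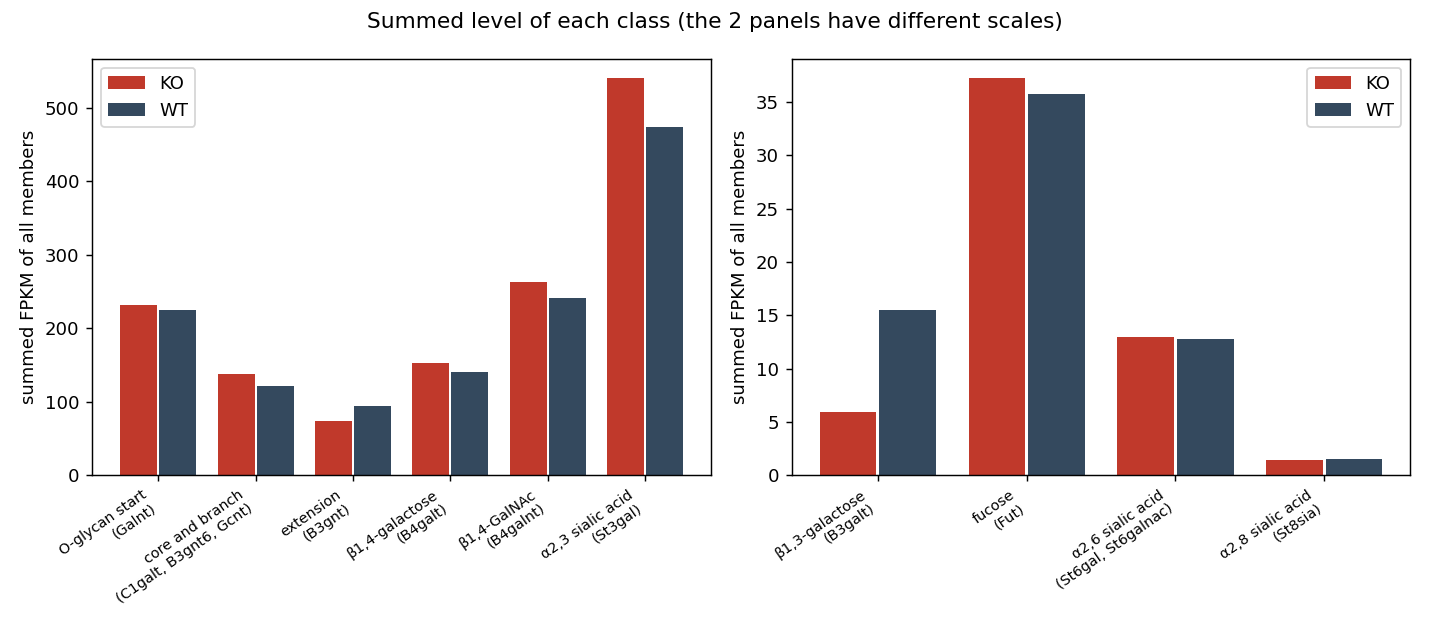
Summed FPKM of all members of each enzyme class, with KO bars left of WT bars and a separate linear scale in each panel. By ratio, the beta-1,3-galactose class, at 5.97 FPKM in KO and 15.5 FPKM in WT, has the most unequal pair of bars. The B3gnt extension class follows by ratio, at 73.9 FPKM in KO and 94.9 FPKM in WT. In FPKM the widest gap is that of the alpha-2,3 sialic acid class, at 540.4 in KO and 474 in WT.

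The alpha-2,3 sialyltransferases were the most abundant class, with a summed FPKM of 540.4 in KO and 474 in WT, mostly from St3gal4. St3gal4 was supported by 26649 reads in KO and 23425 reads in WT and was 1.12-fold higher (1.10 to 1.14). St3gal6, which also caps type 2 chains, was 2.93-fold higher (2.63 to 3.27), or 1.36 on the log2 scale, from 1343 reads in KO and 452 reads in WT by the smallest whole pair. It lies on the minus strand of chromosome 16 (58468125 to 58524243, mm10), and 98 of the 13479 compared genes had a higher log2 ratio. With a pseudocount of 5 its log2 ratio was 0.92 and no longer past 2-fold. Of its 6172 exon bases, 1603, or 26.0%, are shared with Dcbld2 on the opposite strand, and Dcbld2 had 1.19 FPKM in KO and 1.26 FPKM in WT. Beside this value, the 10 tuft cell markers were 4.40-fold higher as a sum, and their part in it was not tested.

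St3gal3, which acts on type 1 and type 2 chains, had 3.33 FPKM from 163 reads in KO and 1.76 FPKM from 85 reads in WT, 1.89-fold higher (1.45 to 2.49) with a log2 ratio of 0.65. The core 1 enzymes St3gal1 and St3gal2 had 4.60 and 2.56 FPKM in KO and 5.32 and 2.21 FPKM in WT. St3gal5, the GM3 synthase at the root of most gangliosides, had 1.08 FPKM in KO and 0.877 FPKM in WT. The counting intervals of the ratios of St3gal2 and St3gal5 span 1. That of St3gal1, 0.681 to 1.10, does too, but it rests on a smallest whole pair, and more reads would make it narrower. Without St3gal4 the class summed to 24.1 FPKM in KO and 14.4 FPKM in WT, 1.67-fold higher, a difference mostly made by St3gal6.

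Alpha-2,6 sialyltransferases were scarce, with a summed FPKM of 13.0 in KO and 12.8 in WT, and 4 of their 9 rows were compared. St6galnac2, which sialylates the GalNAc of O-glycans, had 6.48 FPKM from 663 reads in KO and 5.40 FPKM from 545 reads in WT on its main row, 1.20-fold higher (1.07 to 1.35). The second row of this symbol had 0.875 FPKM in KO and 0.955 FPKM in WT and shares 383 exon bases with the first. St6gal1, which caps N-glycans and makes the CD22 ligand of B cells, had 1.97 FPKM from 171 reads in KO and 3.61 FPKM from 309 reads in WT, 1.83-fold lower (1.51 to 2.22) with a log2 ratio of -0.63. B cell markers were 2.70-fold lower as a sum in the same library, and their part in the St6gal1 value was not tested. St6galnac6, which makes alpha-series gangliosides, went the other way, with 2.61 FPKM from 222 reads in KO and 1.42 FPKM from 119 reads in WT, 1.84-fold higher (1.47 to 2.32) with a log2 ratio of 0.58. St6galnac4 had 0.716 FPKM in KO and 1.01 FPKM in WT. St6galnac1, the sialyl-Tn synthase, had 0 reads in KO and 1 read in WT. St6galnac3, St6galnac5 and St6gal2 were below 1 FPKM in both libraries.

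No alpha-2,8 sialyltransferase, the class that builds polysialic acid and disialylated gangliosides, reached 1 FPKM in either library. The 6 St8sia genes summed to 1.39 FPKM in KO and 1.57 FPKM in WT. St8sia4, a polysialic acid synthase also found in leukocytes, was the highest, at 0.640 FPKM from 227 reads in KO and 0.651 FPKM from 228 reads in WT. St8sia6 had 0.488 FPKM in KO and 0.577 FPKM in WT. The other 4 had at most 0.102 FPKM in KO and 0.154 FPKM in WT.

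Genes that supply or share these pathways had group medians of the log2 ratio from -0.05 to 0.07. Single genes lay further apart among the compared sulphotransferases, from -1.08 to 0.32, and mucins, from -0.74 to 1.24. Enzymes of sugar nucleotide synthesis had a median log2 ratio of -0.05 over 21 compared genes, with none past 2-fold, and Gfpt1, the first enzyme of the hexosamine pathway, was the most abundant at 64.6 FPKM in KO and 67.0 FPKM in WT. The 11 listed genes of the Slc35 family, which includes the Golgi transporters of sugar nucleotides, also had a median of -0.05, with none past 2-fold. Not every gene of this family has that role. Slc35b1 was the most abundant of the list at 46.1 FPKM in KO and 54.1 FPKM in WT. Chain enzymes outside the symbol rule had a median of 0.03 over 16 compared genes, with none past 2-fold, Mgat4a being the most abundant at 47.2 FPKM in KO and 45.9 FPKM in WT. Of 4 compared glycan sulphotransferases, 1 was at least 2-fold lower. It was Chst4, which sulphates N-acetylglucosamine on mucins and selectin ligands, with 8.11 FPKM from 327 reads in KO and 18.2 FPKM from 724 reads in WT, 2.24-fold lower (1.97 to 2.56). Gal3st2, the most abundant of them, had 31.2 FPKM in KO and 28.3 FPKM in WT. Of 5 compared mucins, which are acceptors of O-glycans, 1 was at least 2-fold higher, Muc3a, with 58.0 FPKM in KO and 24.0 FPKM in WT. The most abundant mucin, Muc3, had 1016 FPKM in KO and 1014 FPKM in WT, and the secreted Muc2 had 237 FPKM in KO and 199 FPKM in WT. The membrane mucin Muc13 had 455 FPKM in KO and 763 FPKM in WT, and both were named after their values were seen. Beside these counts stand the 1.61% of all compared genes at least 2-fold higher and the 2.51% at least 2-fold lower.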

How the data were processed

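RNA of small intestine was taken up in TRIzol and its cDNA amplified by SMART-Seq II, per the labels' protocols, with 1 library per genotype. The authors deposited FPKM values, 1 column per library. Per the submitters' processing notes, Bowtie2 2.2.3, HTSeq 0.6.0 and mm10 were used, with no role given. The sources used here do not state the annotation release, strandedness, filters or pooling. Without a known strand setting, reads of overlapping and antisense genes cannot be told apart, and GENCODE M21 places exon bases of 37 of the 79 members in another gene too.

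Groups came from the library titles. Log2 ratios used a pseudocount of 1, which understates differences of low genes, and genes with at least 1 FPKM in at least 1 library were compared. Exon lengths of GENCODE M21, which held 27222 of the identifiers, turned 90.7% of the KO values above 0 and 90.6% of the WT values into whole reads within 0.01. The reads of 68 members followed from these lengths, and 11 were set to the smallest whole pair with the observed ratio. Reads served for counting intervals only. Reads came from PCR without molecular identifiers and are no independent molecules, so that intervals cover counting error alone. The steps were checked on simulated counts. Python 3.11.15, pandas 2.3.3 and SciPy 1.17.1 were used.

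Alternatives were the pseudocount, the filter, 3 scalings and the members without the chaperone and linker enzymes. All members may be named. Full values are given for members past 2-fold, for members with at least 5 FPKM and a log2 ratio of at least 0.5 in size and for the most abundant of each class. Genes of the pathway lists are named where past 2-fold or most abundant, with exceptions said beside them. Of the cell type, gut region and interleukin-22 lists only some genes are named, and a gene left unnamed there may be past 2-fold. The members, lists and motifs were chosen with earlier results of these data known.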

Additional observations from a re-analysis of the deposited data

How the results depend on the processing

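No replicate could be left out, since each genotype has 1 library, and no paired analysis was possible because the groups hold 1 library each and no test was made. The number of members at least 2-fold higher was 1 in the reported comparison and 0 with a pseudocount of 5, under which the log2 ratio of St3gal6 was 0.92. It was 1 under the other 7 alternatives, and the gene was St3gal6 each time. The number at least 2-fold lower was 1 under all 8 alternatives, B3galt5 each time. The median log2 ratio of the members was 0.03 and ranged from -0.003 without a filter on low values to 0.08 when centred on the median of all genes. Of 90 recomputed log2 ratios of 18 named genes, 80 moved by less than their counting error, 10 moved by more and 0 changed sign. Over all compared genes, 217 were at least 2-fold higher and 338 lower, against 355 and 575 with a pseudocount of 0.1, 61 and 122 with one of 5, and 97 and 193 with a filter of at least 5 FPKM. The signs of Galnt1, B4galnt1 and Fut11 changed with the scaling, and the others of the 52 compared members kept theirs under the 3 scalings. Depth limits genes of few reads: a floor of 3 reads is 0.170 FPKM in the KO library and 0.172 FPKM in the WT library for 1 kb of exons.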

Other observations

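Read across the classes, the enzymes of ganglioside synthesis did not share a direction. The lactosylceramide synthases B4galt5 and B4galt6 summed to 94.6 FPKM in KO and 78.0 FPKM in WT, 1.21-fold higher. Ugcg, which makes their acceptor glucosylceramide, had 41.5 FPKM in KO and 39.1 FPKM in WT. The next steps were uneven in level, since the GM3 synthase St3gal5 was near 1 FPKM while the GM2 synthase B4galnt1 was above 50 FPKM in both libraries. The GM1 synthase B3galt4 had 3.72 FPKM in KO and 6.84 FPKM in WT. A4galt, which leads lactosylceramide to globosides, had 4.20 FPKM in KO and 3.96 FPKM in WT. Ugcg and A4galt were named after their values were seen.

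The antisense RNA Galnt6os had 1.02 FPKM in KO and 0.868 FPKM in WT and shares 441 exon bases with Galnt6. St8sia3os had 0 reads in KO and at least 1 read in WT.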
